A study of Homo sapiens with 2 samples.

Results

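The 10 genes described here encode regulators of the BCL2 family, which decides whether the outer mitochondrial membrane is opened during apoptosis. They were chosen by name, by a rule that uses no measured value, as the rows of both deposited transcript tables whose gene is BCL2, BCL2L1, MCL1, BAX, BAK1, BID, BCL2L11, BMF, BBC3 or PMAIP1. All 10 were found, with 27 listed transcripts, among 25240 genes and 37839 transcripts. The study compared 2 RNA-seq libraries of T47D, an established human luminal breast cancer cell line, with 1 library per group. The shRON library came from cells transduced with a short hairpin against RON, the receptor tyrosine kinase encoded by MST1R. The shNT library was made from cells given a non-targeting hairpin. Both cultures were selected in 5 ug/mL puromycin, kept in 1 ug/mL, and grown in high-glucose DMEM with 10% serum, so drug and medium were shared by both groups. The labels do not say whether either line was a clone, how many hairpins were used or when RNA was taken.

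Proteins of this family meet through a short helix, the BH3 domain. The pro-survival proteins BCL-2, BCL-xL and MCL-1 hold the effectors BAX and BAK in check. BH3-only proteins such as BIM, BMF, PUMA, NOXA and BID are induced or activated by stress, occupy the groove of the pro-survival proteins, and in part activate the effectors directly. Activated BAX and BAK form pores through which cytochrome c leaves the mitochondrion and starts the caspase cascade. In estrogen receptor-positive breast cells BCL2 is a known estrogen-responsive gene.

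The values are FPKM, fragments per kilobase of transcript scaled to library size, summed over the transcripts of a gene, so levels of different genes may be set side by side within a library. An estimated 11500000 fragments lay behind the shRON library and 11900000 behind shNT. MST1R was at 9.10 FPKM in shRON and 12.1 FPKM in shNT, 25.1% lower in shRON (ratio 0.749, counting interval 0.675 to 0.832), and 17.7% of measured genes had a lower log2 ratio than MST1R. All 8 luminal breast markers were measured in both libraries, with a sum of 6416 FPKM in shRON and 8618 FPKM in shNT. Of these, KRT8 was at 2634 FPKM in shRON and 3839 FPKM in shNT and PGR at 35.1 FPKM in shRON and 76.7 FPKM in shNT, while GATA3 was at 269 FPKM in shRON and 223 FPKM in shNT. Of the other markers, 0 of 3 basal, 2 of 6 fibroblast, 1 of 6 immune and 0 of 4 endothelial genes reached 1 FPKM in either library. The basal markers summed to 1.34 FPKM in shRON and 0.365 FPKM in shNT. The fibroblast markers summed to 5.86 FPKM in shRON and 4.14 FPKM in shNT, with COL3A1 at 1.53 FPKM in shRON and 0.0103 FPKM in shNT. The endothelial markers stayed under 0.02 FPKM in sum in both. The 6 immune markers summed to 6.72 FPKM in shRON and 1.48 FPKM in shNT, of which CD68 made up 5.84 FPKM in shRON and 1.37 FPKM in shNT, while PTPRC, CD3E, LYZ and TYROBP were listed at 0 in both. The part of these marker differences in the members' values was not tested. In bulk RNA, fewer cells of a kind and less RNA per cell cannot be told apart. Each group being a single library, differences have no replicate check, no test was possible, and every comparison describes these 2 libraries. Intervals are 95% intervals on estimated fragments, which cover counting error only and are approximate. For a single transcript of a gene with several, they leave out the error in dividing shared fragments among transcripts.

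BCL2L1 and MCL1 held most of the summed FPKM of the 10 genes in both libraries, and BCL2 was under 1 FPKM in both. They did not hold most of the sum over all 23 listed family genes, which adds 13 genes such as BAD and BNIP3. The order of levels in shRON was BCL2L1, MCL1, BAX, BID, BAK1, BBC3, BMF, BCL2L11, PMAIP1 and BCL2. The order in shNT differed in that PMAIP1 stood above BCL2L11. In shRON the counting intervals of neighbours in this order overlapped only for BID and BAK1. In shNT they overlapped for BAX and BID, for BBC3 and BMF, and for PMAIP1 and BCL2L11. BCL2L1 lay above 94.6% of measured genes in both libraries, and MCL1 above 91.7% in shRON and 91.5% in shNT.

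**Figure D1:**
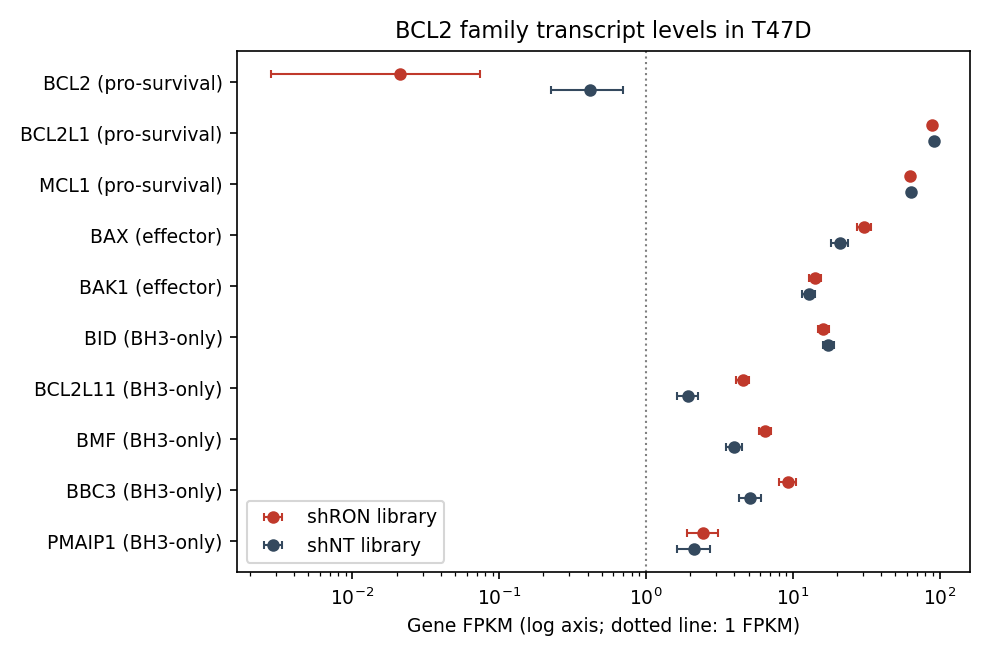
FPKM of the 10 genes on a log axis in the shRON library (red, upper point of each pair) and the shNT library (dark, lower point), with bars for the 95% counting interval on estimated fragments. BCL2 was the only gene under 1 FPKM in both libraries (dotted line), and BCL2L1 and MCL1 were the highest in both.

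In the shRON library 3 of the 5 BH3-only genes were higher by 1.5-fold, while BCL2L1 and MCL1 were nearly equal between libraries. A gene counted as measured if it reached 1 FPKM in at least 1 library, which gave 12481 genes, and 9 of the 10 members passed, each of them in both libraries. Calls used a log2 ratio, shRON over shNT, after adding 1 FPKM to both values, which understates the ratio of low genes, and a gene was called at 1.5-fold on that scale. Of the 9 measured members, 3 were higher and 0 lower by this size, against 9.93% higher and 8.85% lower of all measured genes. The 3 were BCL2L11, BBC3 and BMF, all in the BH3-only class. At 2-fold, 0 of 9 were called either way, against 3.3% higher and 2.17% lower of all measured genes. The median log2 ratio was -0.04 over the 2 measured pro-survival genes, 0.33 over the 2 effectors and 0.59 over the 5 BH3-only genes, beside 0.04 over all measured genes. The 3 higher members had low to middling levels, and of them only BCL2L11 was under 5 FPKM in both libraries. Higher genes were most frequent at the lowest levels. Of genes with a mean under 5 FPKM, 13.7% were higher by 1.5-fold, against 8.57% between 5 and 20 and 7.45% at 20 or more. Lower genes made up 9.62%, 8.14% and 8.93% of these 3 ranges, in the same order.

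**Figure D2:**
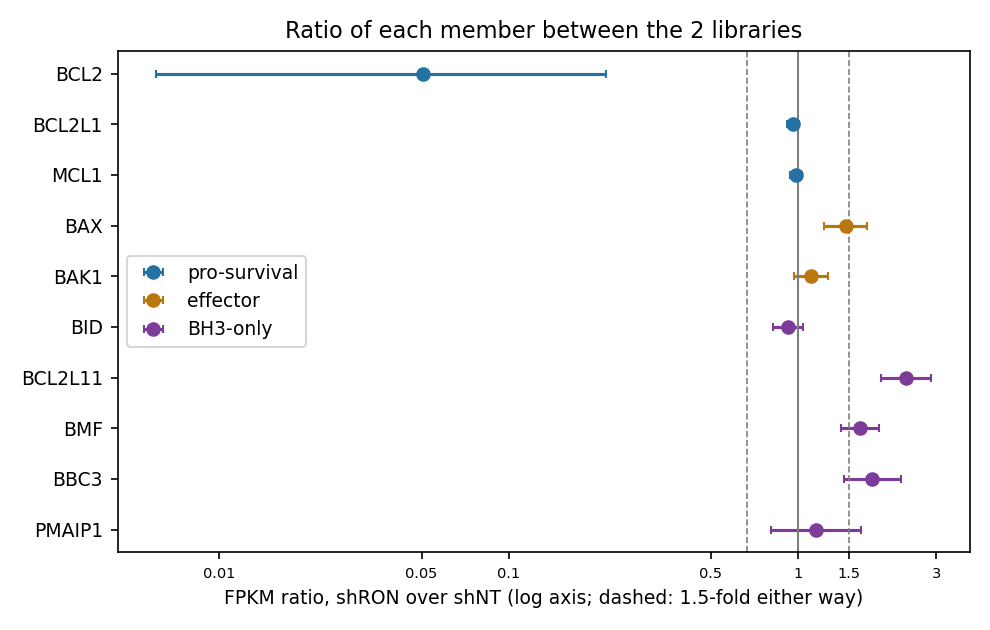
Ratio of FPKM, shRON over shNT, for each of the 10 genes on a log axis, coloured by class, with the 95% counting interval. Dashed lines mark 1.5-fold either way on FPKM without a pseudocount. BCL2L11, BMF and BBC3 lie to the right of 1.5, BCL2L1 and MCL1 beside 1, and BCL2 far to the left on few fragments.

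BCL2, the founding pro-survival gene, was at 0.0210 FPKM in shRON and 0.414 FPKM in shNT, on chromosome 18 from 60790579 to 60986613 (hg19). These values rest on an estimated 2.11 fragments in shRON and 13.6 in shNT. The ratio of FPKM was 0.0508, with a counting interval of 0.00606 to 0.216. BCL2 did not reach 1 FPKM in either library and is therefore outside the counts over measured genes. Its transcript NM_000657.2 was listed at 0 in shRON and at 0.332 FPKM in shNT, and NM_000633.2 at 0.0210 FPKM in shRON and 0.0813 FPKM in shNT. The 15 measured genes within 5 Mb of BCL2 had a median log2 ratio of 0.19, so the region around it was not lower in shRON. The receptor gene ESR1 stood at 23.7 FPKM in shRON and 36.7 FPKM in shNT, a log2 ratio of -0.61, and its part in the level of BCL2 was not tested.

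BCL2L1, which encodes BCL-xL and spans chromosome 20 positions 30252261 to 30310656, was at 88.5 FPKM in shRON and 92.1 FPKM in shNT. The ratio of FPKM was 0.961, with a counting interval of 0.915 to 1.01. The gene is listed with 2 transcripts that differ by 189 bases, the length between a pair of alternative splice donors at the end of a coding exon. Use of the distal donor gives the long form BCL-xL, which protects cells, and use of the proximal donor gives the short form BCL-xS, which is known to promote death. Both donors lie on the minus strand of chromosome 20 (hg19) and are shown because they separate the 2 listed forms. The intron's first bases are in capitals.
Distal donor, chr20:30309443-30309472: gagaacggcggctggGTaagaaccaagccc
Proximal donor, chr20:30309632-30309661: cagagctttgaacagGTagtgaatgaactc
The long form NM_138578.1 was at 82.7 FPKM in shRON and 84.2 FPKM in shNT. The short form NM_001191.2 was at 5.78 FPKM in shRON and 7.95 FPKM in shNT, with a ratio of 0.726 and a counting interval of 0.600 to 0.878. The short form thus made up 6.53% of the gene's FPKM in shRON and 8.63% in shNT. The interval leaves out the error in dividing fragments shared by the 2 forms. Of 4342 genes with several transcripts and 1 FPKM in both libraries, 71.5% had a larger shift of share than these 2.11 percentage points. A shift of this size was therefore common.

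MCL1, which encodes a short-lived pro-survival protein and spans chromosome 1 positions 150547034 to 150552136, was at 63.0 FPKM in shRON and 64.2 FPKM in shNT. The ratio of FPKM was 0.982, with a counting interval of 0.938 to 1.03. Its 2 listed transcripts differ by 248 bases, which is the length of an internal exon at positions 150550720 to 150550967 (hg19, minus strand). Including that exon gives the pro-survival form MCL-1L, and skipping it gives the short form MCL-1S, which lacks the membrane anchor and is known to promote death. The exon's 2 boundaries are shown because the 2 transcripts differ in whether these sites are used, with the intron's bases AG and GT in capitals.
Acceptor, chr1:150550953-150550982: gcttttctttctcAGgcatgcttcggaaac
Donor, chr1:150550705-150550734: aaacaaagaggctggGTaagtttgccttaa
The long form NM_021960.3 was at 59.7 FPKM in shRON and 63.5 FPKM in shNT. The short form NM_182763.1 was at 3.34 FPKM in shRON and 0.673 FPKM in shNT, from an estimated 183 fragments in shRON and 37.4 in shNT. Its ratio was 4.97, with a counting interval of 3.48 to 7.27. Its share of the gene's FPKM was 5.30% in shRON and 1.05% in shNT. These values depend on how fragments shared by the 2 transcripts were divided, an error that the interval does not cover. Of 4342 genes with several transcripts and 1 FPKM in both libraries, 56.8% had a larger shift of share than these 4.26 percentage points, so a shift of this size was common.

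BAX and BAK1, the effectors, were at 44.8 FPKM together in shRON and 33.8 FPKM in shNT. BAX (chromosome 19, 49458117 to 49465055) was at 30.6 FPKM in shRON and 21.0 FPKM in shNT. The ratio of FPKM was 1.46, with a counting interval of 1.23 to 1.73, and the log2 ratio of 0.52 lay just under the size used for calls. With FPKM scaled to the same sum in both libraries it was 0.59, past that size, and with the most abundant transcript alone 0.61. Of the 5 listed BAX transcripts, NM_138761.3, which encodes BAX alpha, was at 23.6 FPKM in shRON and 15.1 FPKM in shNT, and NM_004324.3 was at 6.20 FPKM in shRON and 5.27 FPKM in shNT. The other 3 stayed under 0.4 FPKM in both libraries. BAK1 (chromosome 6, 33540323 to 33548070), with 1 listed transcript, was at 14.2 FPKM in shRON and 12.8 FPKM in shNT, a log2 ratio of 0.14 whose counting interval on the ratio, 0.970 to 1.27, held 1.

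BCL2L11, which encodes BIM, an activator that binds every pro-survival member, had the largest ratio of the measured members. It was at 4.56 FPKM in shRON and 1.94 FPKM in shNT, from an estimated 338 fragments in shRON and 147 in shNT. The log2 ratio was 0.92, and the ratio of FPKM was 2.35 with a counting interval of 1.93 to 2.88. Only 4.09% of measured genes had a larger log2 ratio. The gene lies on the plus strand of chromosome 2 from 111878491 to 111926022, and its regional median, over 25 other measured genes within 5 Mb, was 0.13. Its 2 main transcripts differ by 180 bases that are either kept as exon or removed as an intron, from 111881447 to 111881626. Keeping them gives the extra-long form BIM-EL, whose added stretch carries the sites that ERK phosphorylates, and removing them gives BIM-L. The donor and acceptor of that inner intron are shown with the intron's bases GT and AG in capitals.
Inner donor, chr2:111881432-111881461: agacagagccacaagGTaatcctgaaggca
Inner acceptor, chr2:111881612-111881641: tctcttttgacacAGacaggagcccagcac
The BIM-EL transcript NM_138621.3 was at 2.78 FPKM in shRON and 1.05 FPKM in shNT. The BIM-L transcript NM_006538.3 was at 1.78 FPKM in shRON and 0.888 FPKM in shNT. Both forms were higher in shRON, with ratios of 2.64 and 2.01, and BIM-EL made up 60.9% of the gene's FPKM in shRON and 54.2% in shNT. A shift of share larger than these 6.67 percentage points was seen in 44.5% of the 4342 genes. The listed transcript NM_207002.2 was at or near 0 in both.

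BBC3, which encodes PUMA, was at 9.23 FPKM in shRON and 5.14 FPKM in shNT, a log2 ratio of 0.74 and a ratio of FPKM of 1.80 with a counting interval of 1.44 to 2.26. The difference lay in the transcripts that begin at the upstream start. BBC3 spans positions 47724079 to 47736023 of chromosome 19, minus strand, and is listed with 4 transcripts that begin at 2 places 1572 bases apart. The single transcript of the downstream start, NM_014417.3, was at 4.55 FPKM in shRON and 4.25 FPKM in shNT, a ratio of 1.07 with a counting interval of 0.815 to 1.41. The 3 transcripts of the upstream start summed to 4.68 FPKM in shRON and 0.889 FPKM in shNT, a ratio of 5.27 with a counting interval of 3.21 to 9.09, from an estimated 103 fragments in shRON and 19.1 in shNT. They made up 50.7% of the gene's FPKM in shRON and 17.3% in shNT. Within the upstream group NM_001127240.1, which carries all 4 exons, was at 2.24 FPKM in shRON and near 0 in shNT. NM_001127241.1, without an internal exon of 289 bases, was at 2.14 FPKM in shRON and 0.889 FPKM in shNT. NM_001127242.1 was at 0.302 FPKM in shRON and near 0 in shNT. A shift of share larger than the 33.4 percentage points of BBC3 was seen in 4.49% of the 4342 genes. With the most abundant transcript alone, NM_014417.3, the log2 ratio of BBC3 was 0.08, so its call rests on the upstream transcripts, whose levels depend on how fragments shared by the 4 transcripts were divided.

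BMF, which encodes a BH3-only protein held at the cytoskeleton by dynein light chain, was at 6.50 FPKM in shRON and 3.98 FPKM in shNT. The log2 ratio was 0.59, just past the size used for calls, and the ratio of FPKM was 1.63 with a counting interval of 1.40 to 1.90. BMF spans positions 40380091 to 40401075 of chromosome 15, minus strand, among genes that were lower in shRON: the regional median over 83 genes was -0.38, and BMF relative to it was at 0.97. Its 4 transcripts begin at 3 places. The upstream transcript NM_001003940.1 was at 4.25 FPKM in shRON and 2.80 FPKM in shNT, a ratio of 1.52 with a counting interval of 1.26 to 1.82. The middle start, NM_033503.3, was at 1.01 FPKM in shRON and 0.0101 FPKM in shNT, where it rested on under 1 estimated fragment. The 2 transcripts of the downstream start summed to 1.24 FPKM in shRON and 1.17 FPKM in shNT, but went opposite ways. NM_001003942.1 was at 0.530 FPKM in shRON and near 0 in shNT. NM_001003943.1 was at 0.707 FPKM in shRON and 1.17 FPKM in shNT, a ratio of 0.602 with a counting interval of 0.407 to 0.882. A shift of share larger than its 18.6 percentage points was seen in 14.6% of the 4342 genes. With the most abundant transcript alone the log2 ratio of BMF was 0.47, and with the median of all genes set to 0 it was 0.55, both under the size used for calls.

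A proximal promoter of each of these 3 genes is shown because they were the members past 1.5-fold. The windows cover the start of both main BCL2L11 transcripts, of the 3 upstream BBC3 transcripts and of the upstream BMF transcript. NM_014417.3 of BBC3 begins 1572 bases downstream of the listed upstream start, and the other BMF transcripts begin 2436 and 2788 bases downstream of theirs, outside the windows shown. Sequences are from RefSeq (GRCh38.p14), each from 250 bases before to 50 after a start, read along the gene. Of the members, 9 matched this table and MCL1 did not. The motifs, chosen after the letters had been read, were GAAA, any 2 bases and GAAA again (the core of the interferon-stimulated response element), GTAAACA (FOXO), CACGTG (E-box) and GGGCGG (GC box), on both strands. Capitals mark GTAAACA in BCL2L11, 2 overlapping interferon response cores in BBC3 and the GC boxes of either strand in BMF.
BCL2L11, chr2:111120664-111120963, plus strand: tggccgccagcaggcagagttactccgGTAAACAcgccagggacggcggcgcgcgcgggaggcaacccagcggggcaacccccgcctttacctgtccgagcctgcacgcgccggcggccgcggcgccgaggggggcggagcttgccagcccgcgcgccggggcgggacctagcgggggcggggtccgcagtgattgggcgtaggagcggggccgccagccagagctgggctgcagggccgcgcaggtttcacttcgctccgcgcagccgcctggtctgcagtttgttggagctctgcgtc
BBC3, chr19:47232618-47232917, minus strand: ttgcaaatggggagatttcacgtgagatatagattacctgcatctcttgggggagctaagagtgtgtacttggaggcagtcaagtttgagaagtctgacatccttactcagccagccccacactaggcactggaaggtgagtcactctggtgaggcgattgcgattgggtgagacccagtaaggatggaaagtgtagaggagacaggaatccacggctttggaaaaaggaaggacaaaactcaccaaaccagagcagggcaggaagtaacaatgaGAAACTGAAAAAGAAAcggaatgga
BMF, chr15:40108830-40109129, minus strand: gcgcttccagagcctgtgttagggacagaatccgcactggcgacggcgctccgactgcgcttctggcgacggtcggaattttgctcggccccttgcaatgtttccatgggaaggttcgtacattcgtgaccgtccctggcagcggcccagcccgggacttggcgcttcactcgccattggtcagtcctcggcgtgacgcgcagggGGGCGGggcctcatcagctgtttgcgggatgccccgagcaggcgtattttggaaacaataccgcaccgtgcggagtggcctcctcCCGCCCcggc
Among 34943 promoters of the table, 3.42% held GTAAACA, 3.57% the interferon response core, 7.23% CACGTG and 44.9% GGGCGG. The GTAAACA of BCL2L11 begins 223 bases before the start, and matched on GRCh37 it is the start listed for NM_138621.3 and NM_006538.3. The overlapping cores of BBC3 begin 25 bases after the table's start, itself 99 bases inside the exon that opens the 3 upstream transcripts, and BBC3 was the only member among the 9 matched whose windows held this motif. BBC3 also holds a CACGTG, BAX holds 4, and 2 of the BID windows hold 1. GC boxes were not particular to BMF: the BCL2L11 window holds 3, left unmarked, and windows of BCL2L1, BAX, BAK1, BID and PMAIP1 hold them too. The start in the BMF window lies 5 bases before the listed start of NM_001003940.1, and that window held none of the other 3 motifs. A match is a description of these letters, and no binding was measured.

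PMAIP1 and BID, the other BH3-only members, were not past 1.5-fold. PMAIP1 (chromosome 18, 57567192 to 57571538), which encodes NOXA, a selective binder of MCL-1, was at 2.44 FPKM in shRON and 2.12 FPKM in shNT, from an estimated 71.2 fragments in shRON and 61.4 in shNT. Its ratio of 1.15 had a counting interval of 0.807 to 1.65, which held both 1 and 1.5, so neither equal levels nor a 1.5-fold difference lay outside the counting error. BID (chromosome 22, 18216906 to 18257258), whose product is cleaved by caspase-8 and so links death receptors to mitochondria, was at 16.1 FPKM in shRON and 17.5 FPKM in shNT, with a ratio of 0.920 and a counting interval of 0.816 to 1.04. Of the 3 BID transcripts, NM_001196.2 was at 14.6 FPKM in shRON and 14.9 FPKM in shNT, whereas NM_197967.1 was at 0.288 FPKM in shRON and 1.41 FPKM in shNT. The values of NM_197967.1 rest on an estimated 8.99 fragments in shRON and 45.1 in shNT, divided among transcripts by model. A shift of share larger than the 6.23 percentage points of BID was seen in 46.7% of the 4342 genes.

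**Figure D3:**
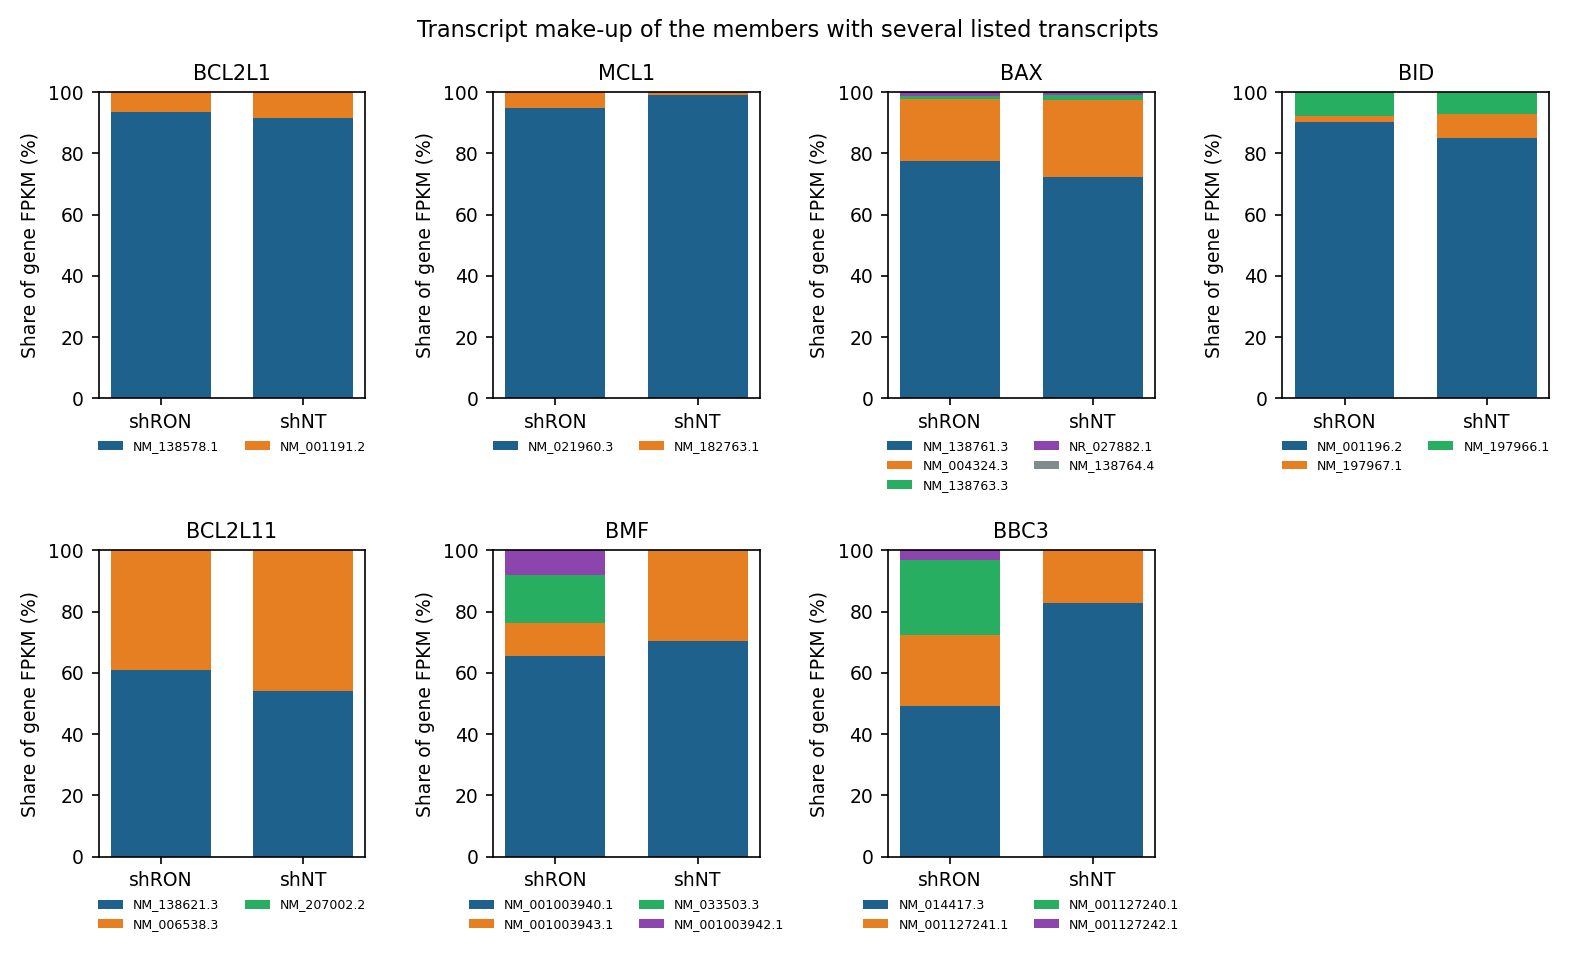
Share of a gene's FPKM in each listed transcript, for the 7 measured members with several transcripts, in the shRON library (left bar) and the shNT library (right bar). BBC3 and BMF show transcripts in shRON that are near 0 in shNT, and the short form of MCL1 takes 5.30% in shRON and 1.05% in shNT.

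Within the 10 genes, the pro-survival class made up a smaller share of the summed FPKM in shRON, and this depended on which family genes were summed. The 3 pro-survival genes summed to 152 FPKM in shRON and 157 FPKM in shNT, which was 64.4% of the 10 genes in shRON and 70.9% in shNT. The effectors took 19.1% in shRON and 15.3% in shNT, and the BH3-only genes 16.5% in shRON and 13.9% in shNT, with sums of 38.8 FPKM in shRON and 30.7 FPKM in shNT. The pro-survival sum was 1.81 times the effector and BH3-only sum in shRON and 2.43 times in shNT, a quotient of 0.746. Among all 23 family genes the same 3 pro-survival genes made up 34.5% in shRON and 35.1% in shNT. When 7 of the further genes were added to their classes, a choice made after the values were seen, the quotient was 0.885. With these, the BH3-only share, which then holds the abundant BAD, was 30.4% in both libraries, and the pro-survival share was 49.7% in shRON and 52.7% in shNT. Ratios within a library do not depend on its scaling. BCL2L1 over BAX was 2.89 in shRON and 4.39 in shNT, MCL1 over BCL2L11 was 13.8 in shRON and 33.1 in shNT, and MCL1 over PMAIP1 was 25.9 in shRON and 30.3 in shNT. BCL2 over BAX was under 0.02 in both libraries and rests on the few fragments of BCL2. BBC3 and BAX lie 1.72 Mb apart on chromosome 19, with regional medians of 0.17 and 0.18. Their log2 ratios relative to these were 0.56 and 0.34, so BBC3 was then just under the size used for calls.

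Among 13 further BCL2 family genes, 8 were measured, of which BIK was higher and BNIP3 lower by 1.5-fold, with a list median of 0.14. BIK, a BH3-only gene whose product sits at the endoplasmic reticulum, was at 6.84 FPKM in shRON and 3.26 FPKM in shNT, a log2 ratio of 0.88. BNIP3, a hypoxia-induced gene of mitophagy and death, was at 51.0 FPKM in shRON and 82.4 FPKM in shNT, a log2 ratio of -0.68. BNIP3L, BAD, BOK, BCL2L2, BCL2L12 and BCL2L13 were measured and not called. BCL2A1, BCL2L10, HRK, BCL2L14 and BCL2L15 stayed under 1 FPKM in both libraries. BAD, a BH3-only gene controlled by phosphorylation, was at 50.6 FPKM in shRON and 59.6 FPKM in shNT.

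Among genes of mitochondrial release and of the caspases, CYCS was lower by 1.5-fold, and only HTRA2 and CASP6 were higher by that size. Of 12 genes of mitochondrial release, HTRA2, a protease that relieves caspase inhibition, was higher (8.98 FPKM in shRON and 5.64 FPKM in shNT, log2 ratio 0.59, and 0.45 relative to its region, under the size used for calls) and CYCS, which encodes cytochrome c, lower (23.3 FPKM in shRON and 42.3 FPKM in shNT, -0.83). SLC25A6 was the most abundant of them, at 209 FPKM in shRON and 185 FPKM in shNT, and the list median was -0.07. Of 7 measured apoptosome and caspase genes, CASP6 was higher, at 12.5 FPKM in shRON and 7.35 FPKM in shNT (0.69, and 0.53 relative to its region, under the size used for calls), 0 were lower and the median was 0.40. CASP8, whose product cleaves BID before the mitochondrial step, is on this list, and its own log2 ratio was 0.40. CASP10 was not measured. Of 6 caspase inhibitors, BIRC3 was higher, at 8.18 FPKM in shRON and 3.63 FPKM in shNT (0.99), and 0 were lower, with a median of 0.32. BIRC2 was the most abundant inhibitor, at 30.8 FPKM in shRON and 22.7 FPKM in shNT.

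Death receptor genes, the other entry to apoptosis, went both ways. Of 9 measured, the ligand gene TNFSF10, which encodes TRAIL, was higher, at 72.6 FPKM in shRON and 23.2 FPKM in shNT (log2 ratio 1.60). FAS was lower, at 4.02 FPKM in shRON and 6.94 FPKM in shNT (-0.66), and so was the adaptor gene TRADD, at 11.5 FPKM in shRON and 19.2 FPKM in shNT (-0.69). FAS and TRADD lie in regions with medians of -0.37 and -0.36, relative to which they were at -0.29 and -0.33 and not called, and the list median was -0.04. These lists describe the surrounding pathway by counts and medians, beside 9.93% higher, 8.85% lower and a median of 0.04 over all measured genes, and no list was tested.

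**Figure D4:**
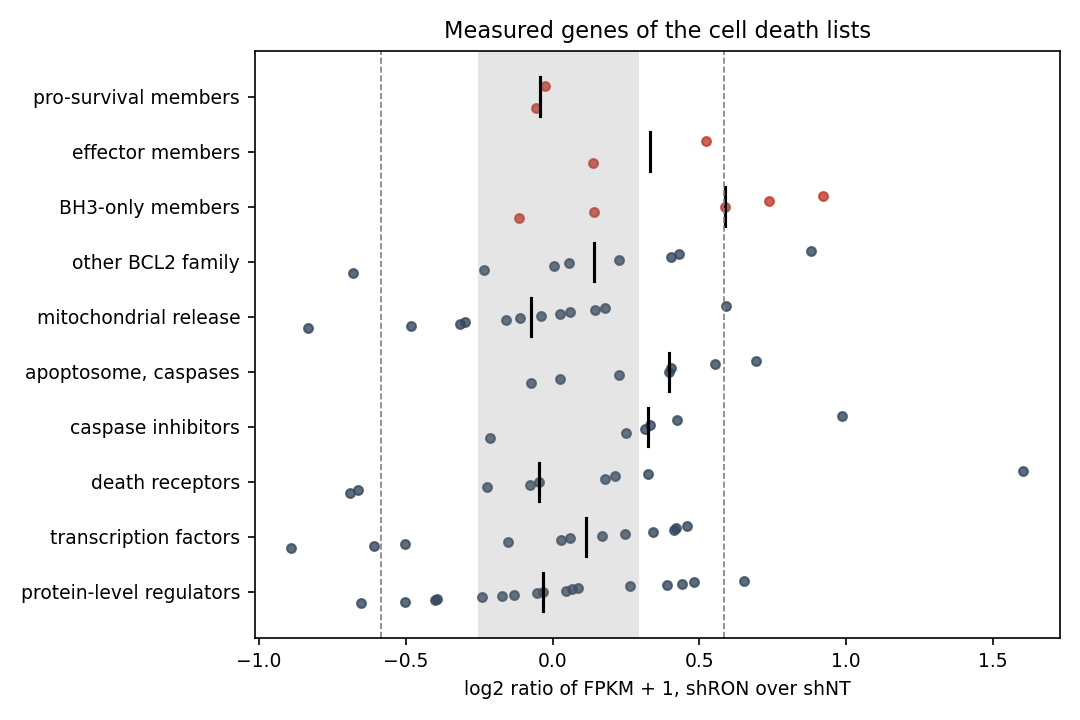
Log2 ratio of FPKM + 1, shRON over shNT, of each measured gene in the 3 member classes (red) and in 7 further cell death lists (dark). Black ticks are list medians, the grey band spans the quartiles of all measured genes, and dashed lines mark 1.5-fold. The medians of the BH3-only members (0.59), caspases (0.40), effector members (0.33) and caspase inhibitors (0.32) lie to the right of the grey band, whose upper edge is 0.29.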

How the data were processed

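RNA was measured in 2 libraries of T47D cells, 1 per group, made with the TruSeq RNA kit from TRIZOL-extracted RNA per the labels' protocols. The sources used here do not give the aligner, the tool versions or whether strand was kept, so reads of overlapping genes cannot be told apart. Groups were taken from the treatment labels. The control table's name calls the cells wild type, and the label of a non-targeting hairpin was followed. Both tables have the layout of Cufflinks transcript tables, per the file headers, on hg19 per the submitters' processing notes, which also name DESeq without a role. The deposited FPKM values were made by the authors per transcript, with no scaling between libraries stated. The deposited coverage, a signal, is the mean read depth over a transcript. The transcript length is also deposited.

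FPKM was summed per gene. Genes had to reach 1 FPKM in either library, leaving out small RNA genes and 2 genes with a failed estimate, which gave 12481 genes. Ratios are log2 with a pseudocount of 1 FPKM. Estimated fragments are coverage times length over the median covered bases of long single-transcript genes holding about 1 read pair, 241 bases in shRON and 244 bases in shNT. Intervals are 95% Clopper-Pearson intervals for ratios and exact Poisson intervals for levels on these estimates. They cover counting error only, and whole reads were not recovered, so no count test was run. Regional medians use other measured genes within 5 Mb, at least 10 of them. The scripts (Python 3.11.15, pandas 2.3.3, scipy 1.17.1, statsmodels 0.14.6) were tested on simulated data. Splice sites were located with GENCODE exons on GRCh37 whose lengths match the listed transcripts.

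The members, lists, sizes and alternatives were chosen with earlier results of these data known. All members and their listed transcripts are named, and of each other list the genes past 1.5-fold and the most abundant, except that some items are not reported here. With 2 libraries no likeness of pattern across samples can be computed.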

Additional observations from a re-analysis of the deposited data

How the results depend on the processing

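No paired analysis was possible because each group has 1 library. The count of 3 higher members was 0 with a pseudocount of 5 FPKM, where all genes gave 515 higher and 465 lower in place of 1239 and 1104. With genes at 5 FPKM or more, 796 genes were higher. BCL2L11 falls out under that filter, as does PMAIP1, both being lower than that in each library. BMF stayed in through shRON alone, at 6.50 FPKM against 3.98 FPKM in shNT. With the most abundant transcript only, the BH3-only median was 0.14 in place of 0.59. With the expression trend removed, the pro-survival median was 0.044 in place of -0.042, the cause of which was not tested. With FPKM scaled to the same sum the pro-survival median was 0.017. The sums before scaling were 382330 FPKM in shRON and 398372 FPKM in shNT, so scaling raised the ratios of BCL2L1 and MCL1. The 11 settings counted below include the main one, the filter at 5 FPKM and the use of no filter. These filters leave a gene's ratio as it was, so a pass under them repeats the main one and adds no check. Across the 11 settings BBC3 ranged between 0.08 and 0.86 and passed 1.5-fold in 8, and BMF ranged between 0.36 and 0.97 and passed in 7. BCL2L11 ranged between 0.46 and 1.19 and passed in 9 of the 10 settings that kept it. BAX ranged between 0.34 and 0.61 and passed in 2. BCL2L1, MCL1, BAK1, BID and PMAIP1 passed in 0. The pro-survival sum over the other classes, shRON over shNT, was 0.746, against 0.768 with the most abundant transcript and 0.750 with coverage. It was 0.885 with 7 further family genes added to their classes, an alternative chosen after seeing the data. Of the pathway list counts, 20 moved by over 1.5 times and 120 did not. BNIP3, CYCS, BIRC3, TNFSF10 and E2F1 passed in all 11 settings, BIK and PPP2CA in 10, CASP6, FAS, TRADD and MAPK8 in 9, ESR1 in 8 and HTRA2 in 7. The HTRA2 call ended with a pseudocount of 5 FPKM, the median set to 0, the regional median subtracted or the trend removed. Low levels limit BCL2 and PMAIP1 most, and 1 library per group limits every comparison.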

Other observations

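Genes of transcription factors known to act on the members were mostly close to equal between libraries. Of 12 measured, 0 were higher and 2 lower by 1.5-fold, beside 9.93% and 8.85% of all measured genes, with a median log2 ratio of 0.11. E2F1 was lower, at 8.33 FPKM in shRON and 16.3 FPKM in shNT (-0.89), and so was ESR1 (-0.61, between -0.65 and -0.52 across the 11 settings and past 1.5-fold in 8 of them). FOXO3, a known activator of BCL2L11 and BBC3, was at 9.39 FPKM in shRON and 6.76 FPKM in shNT (0.42), a gene named here after its values were seen. ATF4 was the most abundant, at 136 FPKM in shRON and 130 FPKM in shNT.

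Of 17 genes whose products act on the member proteins, MAPK8, which encodes the kinase JNK1, was higher, at 10.2 FPKM in shRON and 6.12 FPKM in shNT (0.65, and 0.55 relative to its region, under the size used for calls). PPP2CA, the catalytic subunit of protein phosphatase 2A, was lower, at 46.5 FPKM in shRON and 73.6 FPKM in shNT (-0.65, and -0.31 relative to its region, past the size only without that correction). YWHAZ, whose 14-3-3 protein holds phosphorylated BAD, was the most abundant, at 423 FPKM in shRON and 303 FPKM in shNT. The list median was -0.03.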
